A study of Peromyscus maniculatus and Peromyscus polionotus and Peromyscus maniculatus x Peromyscus polionotus with 18 samples.

Results

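The 5 genes described here form the pathway that controls lipoprotein lipase, the enzyme that frees fatty acids from circulating lipoproteins. They are Angptl4, Lpl, Lmf1, Gpihbp1 and Vldlr, found by symbol without regard to case. All 5 were among the 20732 rows of the parental table, and 3 of them (Angptl4, Lpl and Lmf1) were among the 11928 rows of the hybrid allele table. Angptl4 was chosen by its TPM and counts, which were higher in burrowing than in control libraries. Its differences between trials, species and alleles are therefore given as a description with no test. The other 4 genes were taken because they act with it.

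The libraries were made from whole brains of adult male deer mice, 50 to 80 days old, from *Peromyscus maniculatus*, *P. polionotus* and F1 hybrids of both. Animals went through 2 trials in sand-filled enclosures to acclimate and were then assigned at random to a burrowing or a control trial, with 3 animals in each of the 6 groups. All were killed directly after that trial. The sources used here do not say what animals did in the control trial or which species was the mother of the hybrids. The study asks how gene expression relates to burrowing, which is elaborate in *P. polionotus* and simple in *P. maniculatus*.

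Lipoprotein lipase (Lpl) is folded in the endoplasmic reticulum with the help of Lmf1, lipase maturation factor. It is secreted and then carried across capillary endothelium by Gpihbp1, which holds it in the vessel lumen. Angptl4 inactivates the enzyme, and its transcription is raised by fatty acids through PPAR receptors, by glucocorticoids, by fasting and by exercise in peripheral tissues. Vldlr takes up lipoproteins rich in triglyceride and, in the brain, is also a receptor for reelin, the guidance signal of migrating neurons. In brain, Lpl is made by neurons and glia.

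Parental values are TPM, a share of all transcripts corrected for transcript length, so levels of different genes may be compared. Over the 12 parental libraries Vldlr had a mean of 37.8 TPM and Lpl of 23.0 TPM, Lmf1 of 4.8 TPM, Gpihbp1 of 2.59 TPM and Angptl4 of 1.19 TPM. The order was therefore receptor, enzyme, maturation factor, endothelial anchor and inhibitor, and 32.1% of all rows had a lower mean than Angptl4. Genes were tested when their mean was at least 1 TPM, which all 5 met. Angptl4 met it only through the burrowing libraries, whose mean was 1.88 TPM against 0.509 TPM in the controls.

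In *P. maniculatus*, Angptl4 was at 0.471, 0.372 and 0.312 TPM in control replicates 1 to 3, and at 0.566, 0.904 and 2.1 TPM in burrowing replicates 1 to 3. All 3 burrowing animals lay above all 3 controls, but replicate 3 alone made up much of the mean. The ratio of the means was 3.09, with 1.19 ± 0.809 against 0.385 ± 0.0801 TPM (SD, n = 3). As log2(TPM + 1), a scale on which low values change less, the difference was 0.6 (SE 0.2), and 0.32 without burrowing replicate 3.

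In *P. polionotus*, Angptl4 was at 0.625, 0.498 and 0.778 TPM in control replicates 1 to 3, and at 2.76, 2.41 and 2.52 TPM in burrowing replicates 1 to 3. The burrowing animals lay close together and far above the controls. The means were 2.56 ± 0.177 and 0.634 ± 0.14 TPM (SD, n = 3), a ratio of 4.04 and a log2 difference of 1.13 (SE 0.2). The difference between the species in this trial effect was 0.53 (SE 0.28), and 0.81 without maniculatus burrowing replicate 3.

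In the F1 hybrids, Angptl4 had few allele-assigned counts: 13, 16 and 63 in control replicates 1 to 3 and 58, 142 and 78 in burrowing replicates 1 to 3. In CPM, the counts scaled to a fixed total of allele-assigned counts, this gave 1.14, 1.27 and 1.17 in the controls and 2.21, 4.9 and 3.47 in the burrowing animals. Every burrowing animal again lay above every control. The exact Poisson 95% interval of the lowest burrowing animal was 1.68 to 2.85 CPM, and that of the highest control 0.726 to 2.06 CPM, so counting error alone let these 2 animals overlap. The ratio of the means was 2.95 and the fitted log2 difference 1.55 (SE 0.32). All such intervals cover counting error only.

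**Figure D1:**
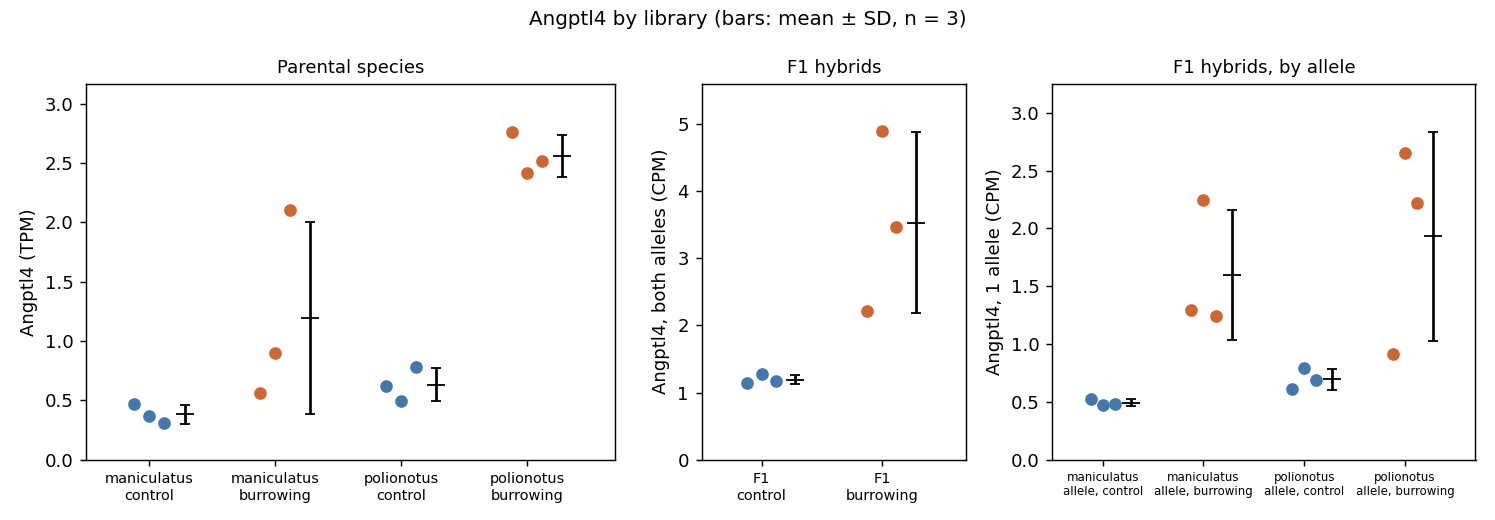
Angptl4 in each library (points), in TPM for the parental species and in CPM for the F1 hybrids, summed over alleles and by allele; black bars are means ± SD, n = 3. Burrowing animals lie above control animals in every panel, from 0.566 against at most 0.471 TPM in *P. maniculatus* and 2.41 against at most 0.778 TPM in *P. polionotus*.

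Both alleles of Angptl4 contributed in the hybrids. The maniculatus allele was at 0.476 to 0.526 CPM in the controls and at 1.24 to 2.24 CPM in the burrowing animals, a ratio of means of 3.22. The polionotus allele was at 0.613 to 0.794 CPM and at 0.914 to 2.66 CPM, a ratio of 2.77. Neither allele overlapped between trials, but the counts were few, and each allele is part of the total that chose the gene. The polionotus allele had 10 in control replicate 2 and 24 in burrowing replicate 1. How many of all genes show such a gap on a single allele was not counted. The difference in allele ratio between trials was -0.29 (SE 0.41) on the log2 scale.

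For all genes tested, burrowing libraries lay above control libraries without overlap in 5.85% of 14366 genes in *P. maniculatus*, in 2.22% in *P. polionotus* and in 1.18% of 11928 genes in the hybrids. In both species at once it was 0.146%, or 21 genes. Angptl4 was the only 1 of 9973 genes with values in both tables (0.01%) for which it held in both species and the hybrids. As the gene was picked for its rise, this places it among other genes and is no test.

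Angptl4 lies in a stretch of the annotation where hybrid allele shares differed between trials. Of the genes near it, in the order of the RefSeq annotation of assembly HU_Pman_BW_mat_3.1, Ndufa7, a respiratory complex I subunit 3 genes away, had a polionotus share of 43.0% to 43.5% in the controls and 91.1% to 98.3% in the burrowing animals. Cd320, the receptor for transcobalamin 4 genes away, had 43.6% to 55.6% and 90.1% to 95.9%. Adamts10, a secreted metalloprotease 7 genes away on the other side, had 42.0% to 42.7% and 75.2% to 79.3%. These 3 genes separated the trials completely. So did Znf414 (46.6% to 50.3%, then 68.1% to 70.0%), Pram1 (49.4% to 57.1%, then 57.6% to 63.2%) and LOC102923557. Pram1 did so only narrowly, with as few as 56 counts in an animal. Myo1f and LOC102924168, also nearby, overlapped. How many of all genes separate in this way was not counted. By the edgeR test, which is a measure other than such a gap, the allele ratio differed between trials in 0.226% of 11928 genes.

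The genes next to Angptl4 did not separate the trials. Rab11b, a recycling endosome GTPase, had 46.2% to 52.2% in the controls and 45.3% to 52.8% in the burrowing animals, and Kank3 had 35.6% to 36.8% and 33.5% to 40.6%. Angptl4 itself had 53.8% to 62.5% and 41.4% to 64.1%, also overlapping. Total Ndufa7 was at 48.6 to 56.2 CPM in the controls and 39.2 to 49.2 CPM in the burrowing animals, so its total moved far less than its allele share. The neighbours' shares differ with the trial in these 6 animals, so a difference in inherited sequence near Angptl4 and the trial cannot be told apart in the hybrids.

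**Figure D2:**
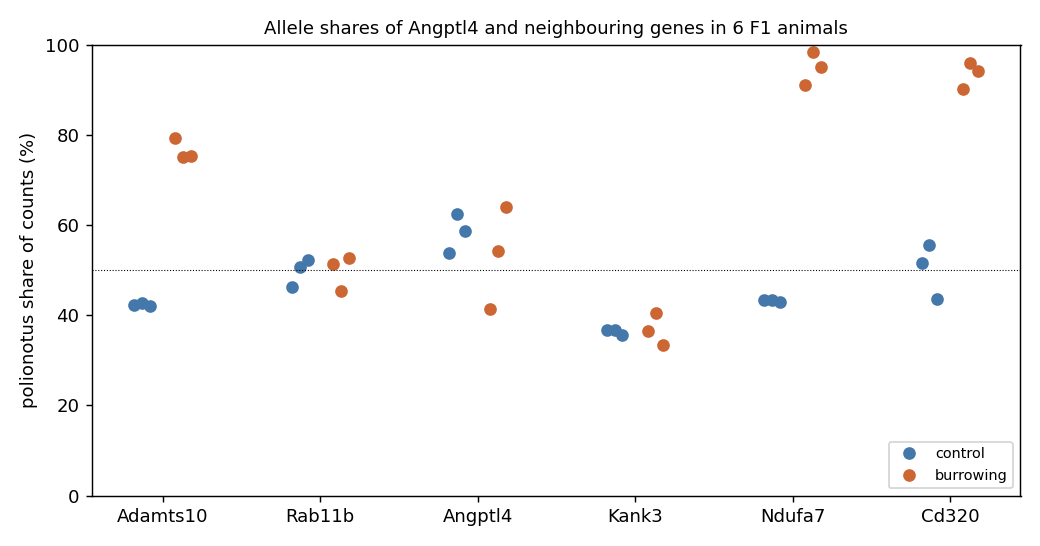
Polionotus share of allele-assigned counts (%) of Angptl4 and 5 nearby genes, in annotation order, with 1 point per F1 animal and colours for the trial. Ndufa7 and Cd320 reach 90.1% or more in every burrowing animal, while Angptl4, Rab11b and Kank3 overlap between trials.

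Adipocytes and astrocytes can carry Angptl4 in a brain sample. Of 7 adipose markers all were in the table, and their summed level was 5.76 to 8.97 TPM in maniculatus controls and 3.27 to 8.2 TPM after burrowing, and 6.02 to 7.39 and 7.09 to 12.04 TPM in *P. polionotus*. In maniculatus burrowing replicate 3, the library with the highest Angptl4 of that species, Adipoq (0.297 TPM) and Cfd (0.804 TPM) were the lowest of the species, Cidea (1.59 TPM) and Cidec (0.347 TPM) were the highest, and Fabp4 and Lep were at 0. In *P. polionotus* Cfd was at 2.33, 3.11 and 4.44 TPM in control replicates 1 to 3 and at 3.93, 8.5 and 3.33 TPM after burrowing, and the median of the 3 adipose markers tested was 0.21. Perilipin 1 (Plin1), which coats the adipocyte lipid droplet, was at most 0.325 TPM in all 12 libraries. The part of adipose RNA in the Angptl4 values was not tested. Astrocyte markers (9 of 9) summed to 5160 to 5887 TPM in maniculatus controls and 5096 to 5615 TPM after burrowing, and to 4458 to 5182 and 4642 to 4930 TPM in *P. polionotus*. The sums of endothelial markers (11 of 13) overlapped between trials in both species. Singly, Egfl7 was lower after burrowing without overlap in *P. maniculatus* (17.4 to 19.0 against 19.95 to 21.5 TPM). Cdh5 was higher without overlap in *P. polionotus* (2.35 to 2.53 against 1.83 to 2.24 TPM), as 2.22% of all genes were. How many of all genes lay lower without overlap was not counted.

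Hindbrain Hox markers (18 of 18) did move with the trial in *P. polionotus*, from 39.7, 7.82 and 19.9 TPM in control replicates 1 to 3 to 48.5, 50.9 and 58.5 TPM after burrowing; of 13 tested, 12 were higher at an unadjusted p under 0.05 and 0 passed limma after adjustment. With control replicates 2 and 3 left out after this was seen, the control arm was 1 library at 0.625 TPM of Angptl4 and its log2 difference was 1.13. The part of hindbrain content in the Angptl4 values was not tested. In *P. maniculatus* the hindbrain sum overlapped, at 44.4 to 56.1 TPM in controls and 36.6 to 52.8 TPM after burrowing. In bulk brain, fewer cells of a type and less RNA per cell cannot be told apart.

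The genes most like Angptl4 over the 12 parental libraries, by Pearson correlation of log2(TPM + 1) after the mean of each species was removed, were Golph3 (r = 0.906), a Golgi phosphoprotein, the kinase Nuak2 (0.879), the lipoyl transferase Lipt1 (0.863), Igdcc4 (0.863) and the mannosyltransferase Alg11 (0.824). The points share libraries and total, and no p is given. In the hybrids, which that choice did not use, Nuak2 was lower after burrowing by a log2 fold change of -0.28 (SE 0.27), Igdcc4 by -0.16 (SE 0.18), and Golph3 and Lipt1 stood at 0.07 (SE 0.15) and 0.12 (SE 0.2). None of these 4 passed edgeR (adjusted p from 0.965 to 0.969), and Alg11 had no value there. The other members were not among the like genes: r with Angptl4 was 0.03 for Lpl, 0.06 for Vldlr, 0.21 for Lmf1 and 0.23 for Gpihbp1.

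Lpl, the enzyme that Angptl4 inactivates, did not pass the test between trials. In *P. maniculatus* it was at 17.4, 14.9 and 12.7 TPM in control replicates 1 to 3 and at 23.7, 13.2 and 15.5 TPM in burrowing replicates 1 to 3. Burrowing replicate 1 stood above the rest, and the other 5 libraries overlapped. The log2 fold change was 0.18 (SE 0.18, limma adjusted p = 1), and it turned to -0.054 without that library. In *P. polionotus* Lpl was at 32.9, 27.9 and 27.6 TPM in controls and at 31.2, 29.2 and 29.7 TPM after burrowing, all within 1 range (0.03, SE 0.18, limma adjusted p = 0.998). In the hybrids the values were 114, 102 and 118 CPM in controls and 109, 168 and 108 CPM in burrowing animals, and burrowing replicate 2 alone lay high (0.18, SE 0.18, edgeR adjusted p = 0.965; -0.034 without it).

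The maturation factor Lmf1 ranged from 4.56 to 4.77 TPM in maniculatus controls, 4.54 to 5.23 TPM in maniculatus burrowing animals, 4.46 to 5.29 TPM in polionotus controls and 4.66 to 5.2 TPM in polionotus burrowing animals. The log2 fold changes between trials were 0.04 (SE 0.08) and 0.05 (SE 0.08). In the hybrids Lmf1 was at 41.8, 47.5 and 47.1 CPM in controls and 48.7, 33.6 and 38.2 CPM after burrowing (-0.2, SE 0.17). None passed (limma adjusted p of 1 and 0.998, edgeR adjusted p = 0.965).

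Gpihbp1, the endothelial anchor, was at 0.07, 3.01 and 1.87 TPM in maniculatus control replicates 1 to 3 and at 1.32, 2.82 and 2.37 TPM in burrowing replicates 1 to 3. Control replicate 1 stood near 0 and the others overlapped. The log2 fold change was 0.43 (SE 0.39, limma adjusted p = 1), and -0.13 without that control. In *P. polionotus* the gene was at 3.86, 2.44 and 3.07 TPM in controls and 2.99, 3.7 and 3.55 TPM after burrowing (0.11, SE 0.39, limma adjusted p = 0.998). In maniculatus control replicate 1 the endothelial sum was 181 TPM, with 158 and 162 TPM in the other maniculatus controls. The tight junction gene Cldn5, highest there of the 3 controls, made up 136 TPM of it. Kdr (0.893 TPM), Cdh5 (1.54 TPM) and Emcn (0.431 TPM) were the lowest of the 3 controls. Pecam1, Flt1, Tek, Tie1, Esam, Egfl7 and Ocln lay between the other controls. Markers of fenestrated endothelium (3 of 3) summed to 15.9 to 17.2 TPM in maniculatus controls and 18.05 to 19.6 TPM after burrowing. The sums did not overlap. Of the markers only Plvap did not overlap (4.02 to 5.66 against 5.71 to 7.78 TPM), while Nrp2 and Ehd4 did. Of all 14366 genes, 5.85% lay higher after burrowing without overlap in that species. The part of these markers in the Gpihbp1 values was not tested.

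Vldlr, the lipoprotein and reelin receptor, was at 40.7, 37.2 and 38.05 TPM in maniculatus controls and 41.5, 41.6 and 38.6 TPM after burrowing (0.07, SE 0.06, limma adjusted p = 1). In *P. polionotus* it was at 36.6, 35.8 and 35.1 TPM in controls and 35.3, 34.3 and 38.6 TPM after burrowing (0.01, SE 0.06, limma adjusted p = 0.998). The trials overlapped in both species.

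**Figure D3:**
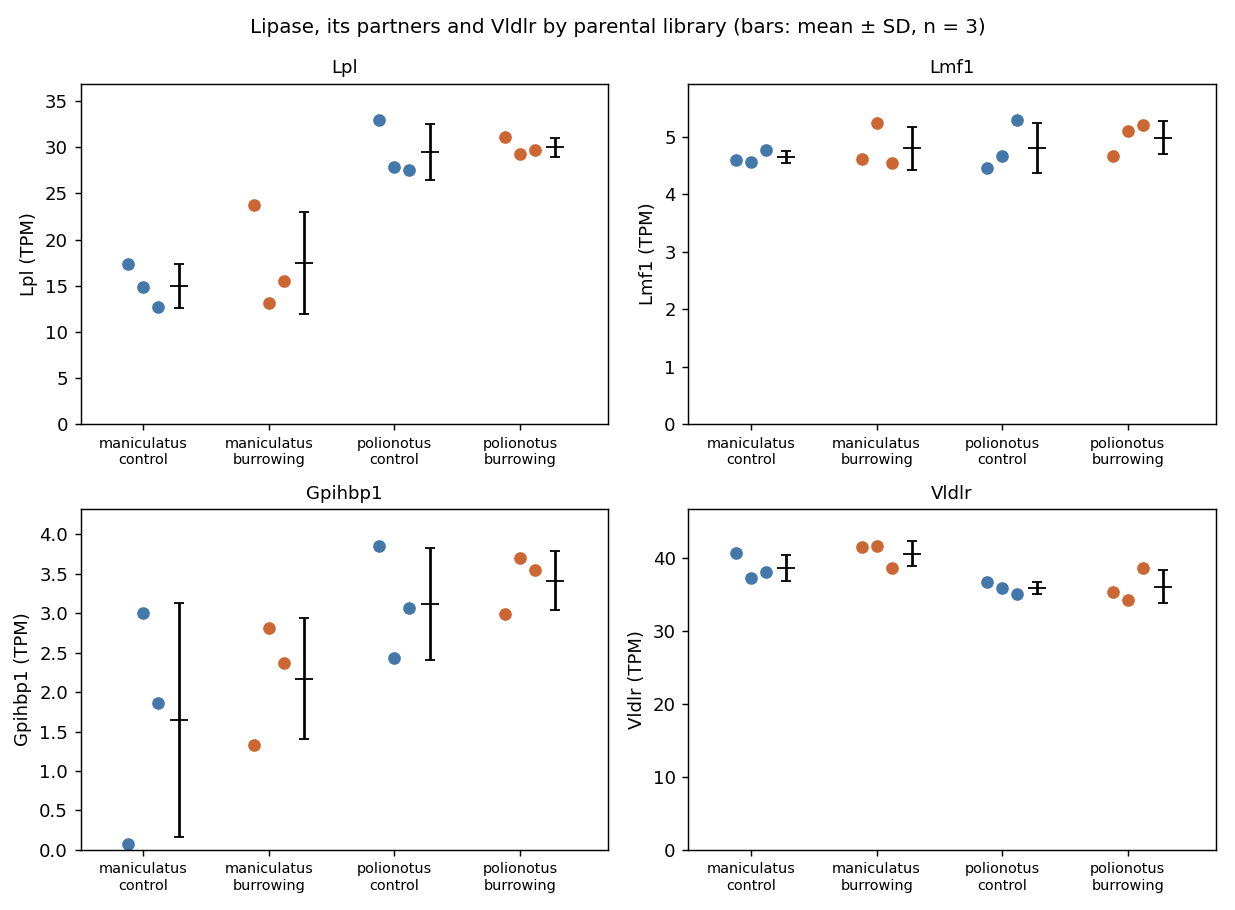
TPM of Lpl, Lmf1, Gpihbp1 and Vldlr in the 12 parental libraries (points) with means ± SD (black, n = 3 per group), axes from 0. Lpl separates the species, at 12.7 to 23.7 TPM in *P. maniculatus* and 27.6 to 32.9 TPM in *P. polionotus*, and none of the 4 genes separates the trials in both species.

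Between trials, then, 0 of the 4 members open to a test passed in *P. maniculatus*, where 0.00696% of 14366 genes did, 0 of 4 in *P. polionotus*, where 0% did, and 0 of 2 in the hybrids, where 0% of 11928 did. At an unadjusted p under 0.05 there were also 0 members, beside 291, 446 and 90 genes of the whole tables in those 3 comparisons. DESeq2 called 2 genes in the hybrids, both lower after burrowing and neither a member. The trial effect did not differ between the species for any of the 4 (log2 differences from -0.32 for Gpihbp1 to 0.01 for Lmf1, limma adjusted p from 0.992 to 0.998), where 0% of genes passed. With 3 animals in a group, such values do not show that the genes did not change.

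**Figure D4:**
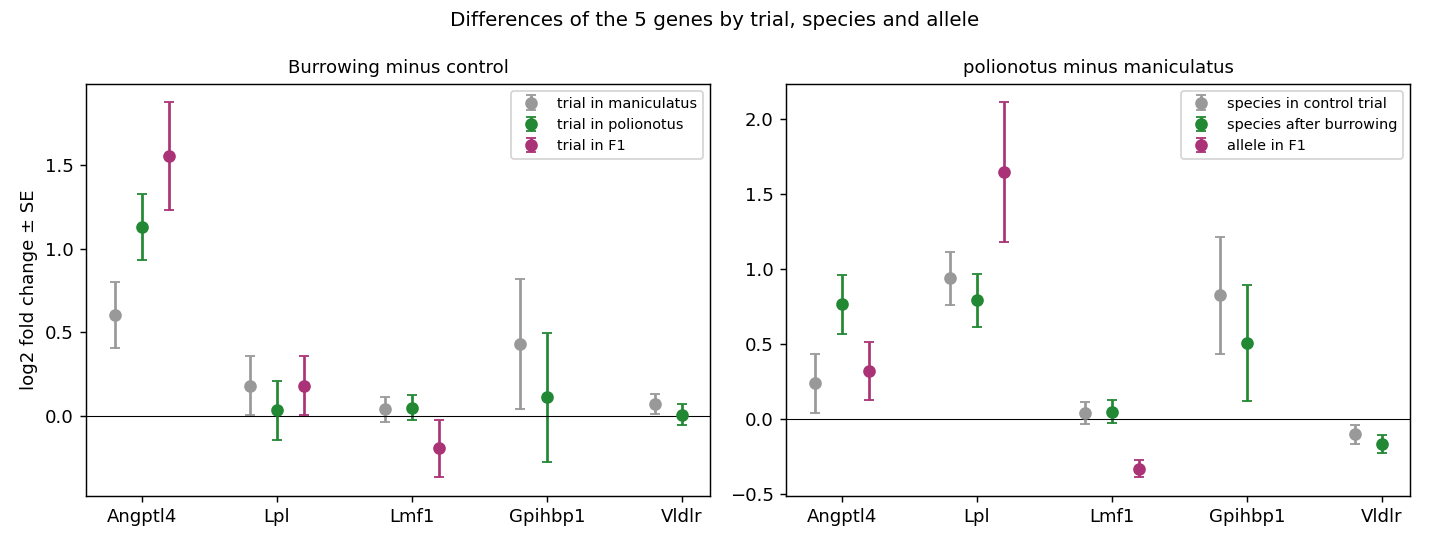
Log2 fold changes ± SE of the 5 genes between trials (left) and between species or alleles (right), from limma on log2(TPM + 1) for the parental species and from edgeR on counts for the hybrids. Angptl4, chosen for it, has the highest values in the left panel at 0.6, 1.13 and 1.55, and Lpl has those in the right panel at 0.94, 0.79 and 1.64.

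Other genes of the pathway were read the same way. Of 39 genes that activate, cleave, anchor or resemble the lipase or take up its products, 28 were tested, and 0 passed between trials in either species; the median log2 fold change was 0.02 in *P. maniculatus* and -0.02 in *P. polionotus*, equal to the medians of all genes. The nearest were the fatty acid binding protein Fabp3 (-0.33, SE 0.17) and Mylip (0.13, SE 0.07), which degrades lipoprotein receptors, in *P. maniculatus*, and Lrp1 (-0.15, SE 0.07) and the syndecan Sdc2 (0.15, SE 0.08) in *P. polionotus*. In the hybrids 0 of 27 passed, with the endocytic receptor Lrp2 at 0.56 (SE 0.23) and Fabp7 at 0.7 (SE 0.28).

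PPAR and fasting genes, which share an inducer with Angptl4, had 30 of 38 members tested. None passed in *P. maniculatus* (median 0.01) or in *P. polionotus* (median 0.04), with 1 and 4 members higher at an unadjusted p under 0.05 and 0 lower, beside 204 and 174 of all 14366 genes higher. At that level 0 and 0 of the lipase pathway list, 0 and 2 of the hypoxia list and 0 and 3 of the glucocorticoid list were higher, and 0 lower. For the mean of both species, 3 of the PPAR and fasting list, 0 of the lipase pathway, 1 of the hypoxia and 5 of the glucocorticoid list were higher. That stood beside 177 of all 14366 genes higher, and no list member was lower or passed after adjustment. Pdk4, the kinase that shuts pyruvate out of oxidation, was at 74.9 ± 8.17 TPM after burrowing and 37.2 ± 5.43 TPM in polionotus controls (SD, n = 3; 0.99, SE 0.25, limma adjusted p = 0.998). In *P. maniculatus* it was at 33.7 ± 10.2 and 27.7 ± 8.42 TPM, and the lipase Pnpla2, which opens lipid droplets, stood at 0.35 (SE 0.13). In the hybrids 0 of 29 members passed, with the lipid droplet coat Plin3 at -1.05 (SE 0.47), Vnn1 at 0.55 (SE 0.26) and Pdk4 at 0.48 (SE 0.32).

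Hypoxia targets had 24 of 30 members tested with 0 passing in either species (medians -0.01 and 0.02), led in *P. polionotus* by the vasodilator peptide Adm at 0.36 (SE 0.12). Glucocorticoid targets had 22 of 24 tested with 0 passing (medians 0.11 and 0.12, beside 0.02 and -0.02 over all genes), led by Arrdc2 (0.45, SE 0.24) in *P. maniculatus* and, after Pdk4, by the mTOR inhibitor Ddit4 (0.35, SE 0.12) in *P. polionotus*. Hybrid counts gave 0 passing of 21 and of 16 members. Pdk4 is in the PPAR and the glucocorticoid list.

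Tests between species are given for the 4 genes other than Angptl4. Between species in control trial libraries, 39.6% of 14366 genes passed (26.8% higher and 12.9% lower in *P. polionotus*). Of 13 hindbrain Hox markers tested, 10 were lower in polionotus controls, and without control replicates 2 and 3 of that species the genes passing fell from 5696 to 2728. Lpl was higher in *P. polionotus*, at 29.5 ± 3.02 against 15 ± 2.36 TPM (SD, n = 3; 0.94, SE 0.18, limma adjusted p = 0.002), a ratio of 1.97, and it was the only one of the 4 to pass. Without those 2 libraries its difference was 1.1 (limma adjusted p = 0.024), with 1 polionotus control left. After burrowing it was at 30 ± 1.02 against 17.5 ± 5.57 TPM (0.79, SE 0.18, limma adjusted p = 0.00587), again the only member to pass of the 4 tested, beside 34.1% of genes (20% higher and 14.1% lower in *P. polionotus*). Over both trials the 6 polionotus libraries (27.6 to 32.9 TPM) lay wholly above the 6 maniculatus libraries (12.7 to 23.7 TPM), as 32.8% of genes did in 1 direction or the other. The mean difference was 0.86 (SE 0.13, limma adjusted p = 0.000193), and Lpl passed under each alternative run on the species comparisons.

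Vldlr went the other way by a small amount. Over both trials it had a mean of 35.9 ± 1.53 TPM in the polionotus and 39.6 ± 1.9 TPM in the maniculatus libraries (SD, n = 6; -0.14, SE 0.04, limma adjusted p = 0.0209), beside 52.4% of genes that passed (32.6% higher and 19.8% lower). The ranges of 34.3 to 38.6 and 37.2 to 41.6 TPM overlapped. The call ended without maniculatus burrowing replicate 1 (adjusted p = 0.0503), maniculatus control replicate 1 (0.0541) or polionotus burrowing replicate 2 (0.056), and without both polionotus controls low in hindbrain markers (0.106). Within a trial Vldlr did not pass (-0.1 in controls, limma adjusted p = 0.197, and -0.17 after burrowing, adjusted p = 0.0547), except after quantile or median scaling (adjusted p from 0.0217 to 0.0271).

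Over both trials Gpihbp1 had a mean of 3.27 ± 0.533 TPM in the polionotus and 1.91 ± 1.09 TPM in the maniculatus libraries (SD, n = 6; 0.66, SE 0.27, limma adjusted p = 0.0627). It did not pass there or in controls (0.82, SE 0.39, limma adjusted p = 0.116), although without maniculatus control replicate 2 it passed in both (adjusted p = 0.0133 and 0.0269). Fenestrated endothelium markers, from vessels that carry Gpihbp1 in the brain, summed to 22.1 to 24.0 TPM in polionotus libraries and 15.9 to 19.6 TPM in maniculatus libraries (3 of 3 markers found). Singly, Plvap and Nrp2 were higher in *P. polionotus* without overlap, while Ehd4 overlapped (5.33 to 6.88 against 5.89 to 6.97 TPM). Of all genes, 32.8% lay without overlap in 1 direction or the other. The part of these markers in the Gpihbp1 difference was not tested. Lmf1 was at 4.89 ± 0.344 and 4.72 ± 0.263 TPM (0.04, SE 0.05, limma adjusted p = 0.526), with a sign that turned under quantile and median scaling.

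Angptl4 in control animals had a mean of 0.634 ± 0.14 TPM in the polionotus and 0.385 ± 0.0801 TPM in the maniculatus libraries (SD, n = 3). The 3 polionotus controls, from 0.498 TPM, lay above the maniculatus controls, up to 0.471 TPM, by little, and the log2 difference was 0.24 (SE 0.2). How many of all genes show such a gap between the control libraries was not counted. After burrowing the ratio of the species means was 2.15 and the difference 0.76 (SE 0.2). Both are given as a description with no test, since these values chose the gene.

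In the hybrids, both alleles of a gene sit in the same cells, so their ratio compares the alleles in a shared setting. As the mother's species is not given, the species of an allele and the parent it came from cannot be told apart. The allele assignment is also not described. The polionotus allele of Lpl took most of the counts, with a log2 allele ratio of 1.64 (SE 0.46, edgeR adjusted p = 0.0237), where 55.7% of 11928 genes passed (34.2% toward the polionotus and 21.5% toward the maniculatus allele). Lmf1 leaned to the maniculatus allele (-0.33, SE 0.06, edgeR adjusted p = 0.00273), with a polionotus share of 41.7% to 46.7% in all 6 animals; 53% of genes lay on 1 side of 50% in all 6. Without the animal block Lmf1 did not pass (-0.32, adjusted p = 0.0648). Around Lmf1, control replicate 3 stood apart at some genes: Sox8, the next gene, was at 24.6% there and 42.6% to 48.1% in the other animals, Haghl, 7 genes away, at 26.8% and 59.4% to 71.6%, and Jmjd8, 13 genes away, at 10.97% and 54.1% to 61.6%. Lmf1 itself was at 45.0% in that animal, within the range of the others. The allele ratio of Angptl4 was 0.32 (SE 0.19), with 165 summed counts on the maniculatus and 205 on the polionotus allele. Most of these counts came from the burrowing animals, whose level chose the gene, so no test is given. Without burrowing replicate 1, which had its lowest polionotus share (41.4%), the value was 0.51, given as a description. The Lmf1 allele difference had no counterpart between the species, where the value was 0.04. Whether the allele and species differences of a gene differ was not tested.

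The Lpl allele ratio was far from uniform. Its polionotus share was 85.7%, 87.2% and 63.2% in control replicates 1 to 3 and 87.8%, 53.8% and 62.7% in burrowing replicates 1 to 3, and the widest Wilson 95% interval was 60.8% to 64.6% (burrowing replicate 3). These intervals leave wide gaps between animals of both trials. A range at least as wide as that of Lpl, 34.0 percentage points, was seen in 10.7% of all genes and in 6.87% of the 3055 genes with at least 1000 counts in every animal.

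Of the Lpl alleles, that of maniculatus varied most. It was at 16.3, 13.1 and 43.6 CPM in the controls and at 13.2, 77.7 and 40.2 CPM in the burrowing animals, a range of 5.93-fold. The polionotus allele was at 97.7, 89.2 and 74.9 CPM and at 95.4, 90.3 and 67.7 CPM, a range of 1.44-fold. Leaving out control replicate 1, control replicate 2 or burrowing replicate 1, the animals with the highest shares, ended the allele call (adjusted p = 0.0647, 0.0625 and 0.0591), and the ratio then was 1.39 to 1.44. The allele ratio did not pass between trials (-0.81, SE 0.93, edgeR adjusted p = 1), where 0.226% of genes did (0.218% upward and 0.00838% downward).

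Genes beside Lpl varied in the same animals. Lzts1, 3 genes away, had shares of 88.1%, 84.1% and 40.9% in control replicates 1 to 3 and 86.7%, 43.3% and 43.1% in burrowing replicates 1 to 3. The proton pump subunit Atp6v1b2, 2 genes away, had 84.0%, 84.8% and 49.6%, then 84.3%, 48.6% and 49.6%. Ints10, the next gene on the other side, had 59.3%, 61.5% and 48.9%, then 61.9%, 45.9% and 49.8%. Csgalnact1, 2 genes away on that side, stayed at 37.4% to 43.5%, and Psd3, 4 genes away, at 54.0% to 57.5%.

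The 3 animals with the highest Lpl shares were thus those with the highest shares of Lzts1, Atp6v1b2 and Ints10. Total Ints10 was at 71.4 to 90.1 CPM in all 6 animals. Its polionotus allele was at 43.9 to 53.4 CPM in the animals with high shares and at 38.1 to 39.9 CPM in the others, and its maniculatus allele at 27.5 to 36.6 and 39.8 to 46.4 CPM. Between the parental species Atp6v1b2 and Ints10 differed by a log2 fold change of 0.01 and -0.02, while Lpl differed by 0.86. The sources used here do not describe the allele assignment, and its part in these shares was not tested.

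**Figure D5:**
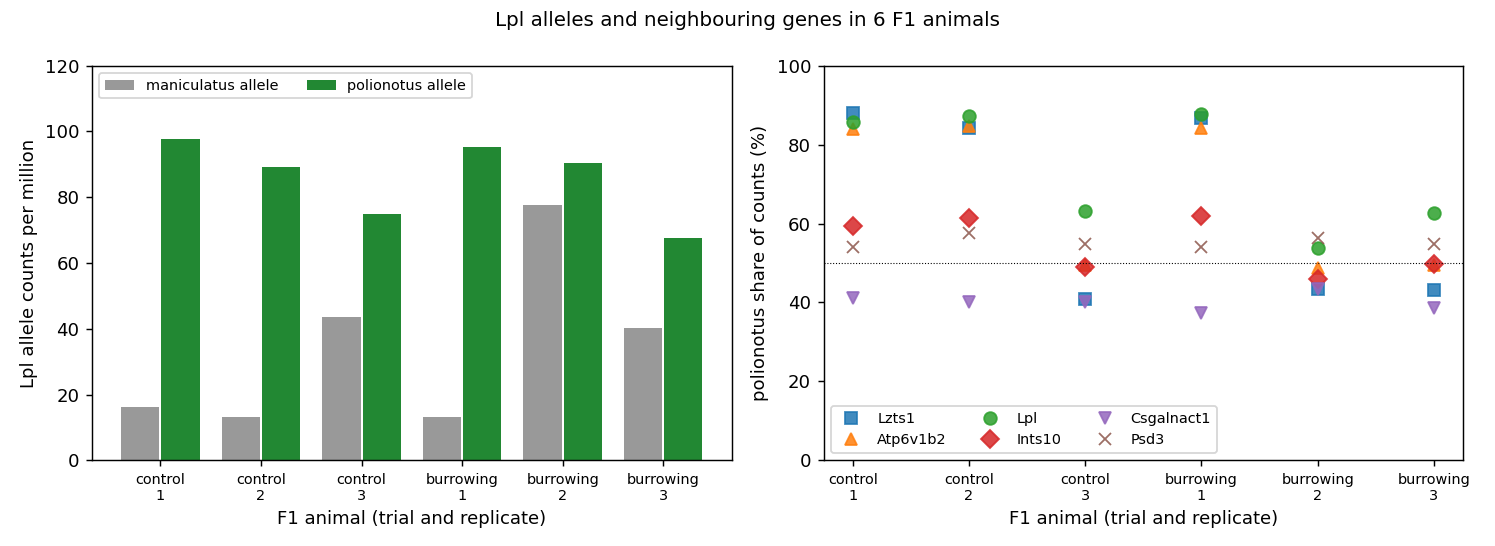
Left, Lpl CPM on each allele in the 6 F1 animals; right, the polionotus share (%) of Lpl and 5 nearby genes in the same animals. The maniculatus allele of Lpl lies at 13.1 to 16.3 CPM in control 1, control 2 and burrowing 1, where Lzts1 and Atp6v1b2 also exceed 84%, and at 40.2 to 77.7 CPM in the others.

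Between species, 13 of the 28 other lipase pathway genes passed in control animals, 9 higher and 4 lower in *P. polionotus*, beside 39.6% of all genes, and the median was 0.1 beside 0.08 over all genes. Among those higher were the lipid carrier Apoe (1.1, SE 0.19), Fabp3 (0.7) and the heparan sulphate carrier Sdc4 (0.62). Lower were Apoc1 (-2.47, SE 0.24), a lipase inhibitor on lipoproteins, at 45.7 ± 6.46 against 257 ± 33 TPM, Apoa1 (-1.12), Sdc1 (-0.39) and Sdc2 (-0.31). Their limma adjusted p ranged up to 0.0374. After burrowing 7 were higher and 3 lower of 28, beside 34.1% of all genes called, among them again Apoe (0.86), Fabp3 (0.99) and Apoc1 (-2.19).

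PPAR and fasting genes had 11 members higher and 2 lower of 30 in controls (median 0.19 beside 0.08) and 12 higher and 1 lower after burrowing (median 0.21 beside 0.03). Over all genes 26.8% were higher and 12.9% lower in controls, and 20% and 14.1% after burrowing. Creb3l3 (1.35), a transcription factor of fasting, Plin3 (0.78), the peroxisomal enzyme Ehhadh (0.71) and Cpt1b (0.69), which admits fatty acids to mitochondria, were higher in controls, and Acadl (-0.34) and Eci1 (-0.24) lower. After burrowing Pdk4 (1.17, SE 0.25) and the mitochondrial carrier Ucp2 (0.97) led those higher. Of the hypoxia list 2 were higher and 4 lower of 24 in controls, and 3 and 3 after burrowing. Of the glucocorticoid list 3 were higher and 1 lower of 22 in controls, and 4 and 1 after burrowing. Both lists had a smaller share called than the 39.6% and 34.1% of all genes in these comparisons.

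Among hybrid alleles, 8 of 27 pathway genes leaned to the polionotus and 5 to the maniculatus allele, beside 55.7% of all genes called. The lipoprotein receptor Scarb1 (2.04), Sdc4 (1.05), Lrp2 (0.86) and Apoc1 (0.82, SE 0.17) led the first, and Pcsk5 (-0.41), Fabp5 (-0.29), Abca1 (-0.24) and Sdc2 (-0.19) the second. For Sdc4 and Sdc2 the allele leaned as the species did in controls, while Apoc1 was lower in *P. polionotus* and higher on its allele. Of 29 PPAR and fasting genes 12 leaned to the polionotus and 4 to the maniculatus allele. Ehhadh (1.1) and Ucp2 (1.08) were among the first, Vnn1 (-2.12), Hadhb (-1.55), Acadl (-0.69) and Eci1 (-0.27) were the second. Plin3 (2.61, SE 0.88) was the one list member whose allele ratio differed between trials (4.15, SE 0.3, edgeR adjusted p = 0.0161), where 0.226% of all genes passed. As near Angptl4, a difference in inherited sequence and the trial cannot be told apart for Plin3 in these hybrids.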

How the data were processed

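Whole-brain RNA of 18 animals was measured. Parental values are TPM made by the authors, and hybrid values are read counts per allele deposited by the authors; reads were aligned with STAR 2.4.2a, per the submitters' processing notes. The genome build and the allele assignment were not found in these sources. Columns were matched to samples by name, and the column codes for the species were read from the hybrids' labels. A parental row without a gene name, with 0.789% to 2.48% of the summed TPM, was left out.

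Parental comparisons used limma 3.58.1 on log2(TPM + 1) over genes averaging 1 TPM or more, with all 4 groups in 1 fit. Hybrid trials used edgeR 4.0.16 (quasi-likelihood, TMM) on summed alleles, and alleles used edgeR with the animal as block over genes with a mean of at least 20 counts. P-values were Benjamini-Hochberg adjusted over all genes, with a threshold of 0.05, and R was 4.3.3. The fits were tested on simulated data. Allele-assigned counts were 11415175 to 53906964 per hybrid; the depth of the parental libraries is unknown. Replicates are separate animals.

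Named genes are the 5 members, up to 4 called genes per list, comparison and direction with the largest change (otherwise the pair with the smallest p), and the 5 genes most like Angptl4. Members and lists were chosen with earlier results of these data known. Alternatives covered pseudocount, filter, scaling, tool (DESeq2 1.42.0), block and each library left out. Some genes that the rule for named genes covers are not reported here.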

Additional observations from a re-analysis of the deposited data

How the results depend on the processing

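Of the 5 members, Lpl kept its direction and its call in the species comparisons under every alternative run. Angptl4 was higher after burrowing in both species and the hybrids under every alternative that kept it in the table; its log2 difference was 1.24 and 0.19 in *P. maniculatus*, and 1.88 and 0.42 in *P. polionotus*, at pseudocounts of 0.1 and 5. A filter of at least 5 TPM removed Angptl4, Lmf1 and Gpihbp1. The counts of genes called between trials were small and moved. In *P. maniculatus* the count was 0 with a pseudocount of 0.1, a filter of 5 TPM or only the groups compared, and 1 to 6 leaving out each library; in *P. polionotus* it was 3 with no filter and 0 to 2 leaving out libraries. For the mean of both species it was 0 with a pseudocount of 0.1 or 0.5, a filter of 5 TPM, quantile normalization, the replicate block or without both polionotus controls low in hindbrain (Hox) markers, 2 with no filter, median scaling or no trend, and 0 to 3 leaving out libraries. For the interaction it was 1 with a pseudocount of 5 or no filter, and 0 to 2 leaving out libraries. Without both low-Hox polionotus controls, chosen after seeing the data, the count for the species in control trial comparison was 2728. In the hybrids DESeq2 called 2 genes between trials and 60 for the allele by trial difference, where 16 were called without the animal block and 10 to 73 leaving out animals.

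Whether replicate numbers pair the animals is not settled here. Deviations of same-numbered libraries correlated at 0.254, 0.126 and 0.0994 between trials in *P. maniculatus* and at 0.0484, -0.0741 and -0.229 in *P. polionotus*. Libraries of different number were at -0.161 to 0.0328 and at -0.202 to 0.304. In the hybrids same-numbered animals were at -0.46, -0.584 and 0.186, and those of different number at -0.175 to 0.656. With the replicate block no member's call changed in the parental species or between hybrid trials, and without the animal block Lmf1 lost its allele call (-0.32, adjusted p = 0.0648).

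Signs that turned belonged to values that did not pass. Lmf1 between species was -0.044 and -0.017 with quantile normalization and -0.048 and -0.016 with median scaling (controls, then both trials), and -0.047 and -3.0e-06 without both low-Hox controls. Without those controls the polionotus trial values were -0.13 for Lpl, -0.14 for Gpihbp1 and -0.025 for Vldlr, and with median scaling the Vldlr interaction was 0.0019. Leaving out single libraries gave ranges of -0.054 to 0.35 (Lpl), -0.13 to 0.82 (Gpihbp1) and -0.017 to 0.067 (Lmf1) in *P. maniculatus*, of -0.014 to 0.11 (Lpl), -0.015 to 0.23 (Gpihbp1) and -0.043 to 0.041 (Vldlr) in *P. polionotus*, and of -0.012 to 0.19 (Lpl) and -0.0091 to 0.47 (Gpihbp1) for their mean. They were -0.32 to 0.084 (Lpl), -0.72 to 0.24 (Gpihbp1) and -0.032 to 0.069 (Lmf1) for the interaction, -0.022 to 0.080 for Lmf1 between species in controls, -0.034 to 0.28 for Lpl between hybrid trials and -0.10 to 0.038 for the Lmf1 allele by trial difference. The causes were not tested. Depth limits the hybrid values of Angptl4, which rest on 13 to 142 counts an animal.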
